A study of Mus musculus with 9 samples.

Results

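Nascent transcription far from annotated genes was examined in 9 tNET-seq libraries of mouse liver. The genome was divided into fixed 1 kb windows, and a window was taken as a transcribed intergenic window when it lay on chr1 to chr19, over 10 kb from any gene of GENCODE vM21 (mouse genome build GRCm38), held a mean of at least 10 reads over the 9 libraries, and had no single position with over 50% of these reads. Of 871778 windows over 10 kb from genes, 4788 met the rule, against 384512 windows that overlapped a gene and 17004 within 10 kb of one, which together made 406304 windows under the read rule. The windows were therefore selected on their read counts, which are given below as a description only. Of the windows, 423 lay just inside the limit with a mean of 10 to under 11 reads, while 486 others lay just outside it with 9 to under 10, and the limit on single positions removed 1532. Of the 4788 windows, 2751 were over 20 kb, 996 over 50 kb and 268 over 100 kb from any gene.

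The libraries came from whole liver of C57BL/6N mice, male per the study's methods, at 3, 12 and 18 months of age, with 3 libraries per age that those methods call independent biological replicates. No treatment, allele or transgene was part of the design, so age was the only factor of the design, although the livers of the older mice were heavier per those methods, and p-values below measure the spread between these libraries. In tNET-seq, RNA held by engaged RNA polymerase II is recovered with the chromatin and its 3′ end is sequenced, so each read marks the strand and the base that a polymerase had reached.

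Polymerase II is found outside genes for several known reasons. It runs on beyond the polyadenylation site of a gene before it is released, it starts in both directions from enhancers and from promoters, giving short unstable RNAs on the 2 strands, and it transcribes long noncoding RNAs that an annotation may not hold. Enhancers of liver genes are bound by transcription factors such as the FOXA and C/EBP families. RNAs that are made in large amounts, such as tRNA and rRNA, can enter such libraries as mature molecules, and their copies and fragments are scattered over the genome.

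The libraries held from 15003713 reads (18 months replicate 1) to 50707801 (12 months replicate 2), of which 96.9% to 97.7% lay on chr1 to chr19. Mitochondrial reads took 0.547% to 0.749% at 3 months, 0.68% to 0.966% at 12 months and 1.12% to 1.29% at 18 months, with no overlap between 3 and 18 months. The defining markers of hepatocytes summed to 688 to 1280 RPKM (reads per kb of gene body, scaled to the library's total), against 0.607 to 9.55 for each list of Kupffer and immune, endothelial, stellate and fibroblast, or cholangiocyte markers. The ranges of 3 and 18 months overlapped for each list. Single markers did separate these ages: Apoa1 and Cps1 of the 6 hepatocyte markers and Krt19, Krt7 and Epcam of the 4 cholangiocyte markers were lower in every library of 18 than of 3 months (Krt19, a keratin, 0.0276 to 0.0409 against 0.129 to 0.147 RPKM), and Ptprc of the 4 Kupffer and immune markers was higher. In such bulk samples, fewer cells of a type and less RNA per cell cannot be told apart. Over the 4788 windows, the first principal component (31.0% of the variance) placed the 3 libraries of 3 months at -39.4 to -29.4 and the 3 of 12 months at 21.6 to 27.4, and 18 months replicate 1, the shallowest library, stood apart on the second (-49.4, 21% of the variance). The results for which that library decided a call are named as such.

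The sequences below show what the windows are made of, read from the reference genome (GRCm38). The first 4 come from windows with reads on both strands, because they differ in base composition and because their signal changed with age: each is the 300 bases around the midpoint between the mean read position of the minus strand and that of the plus strand, plus strand, with CG dinucleotides in capitals. The stretch chr4:8647336-8647635, 24.6 kb from the pseudogene Gm11809, held 40 CG dinucleotides and 3 copies of GGGCGGG. The stretch chr1:181257196-181257495, 45 kb from Wdr26, held 12 CG dinucleotides, the stretch chr9:46257440-46257739, whose window lay 10.6 kb upstream of Apoa5, held 2, and the stretch chr5:90447553-90447852, whose window lay 12.9 kb upstream of Alb, held 1.
chr4:8647336-8647635: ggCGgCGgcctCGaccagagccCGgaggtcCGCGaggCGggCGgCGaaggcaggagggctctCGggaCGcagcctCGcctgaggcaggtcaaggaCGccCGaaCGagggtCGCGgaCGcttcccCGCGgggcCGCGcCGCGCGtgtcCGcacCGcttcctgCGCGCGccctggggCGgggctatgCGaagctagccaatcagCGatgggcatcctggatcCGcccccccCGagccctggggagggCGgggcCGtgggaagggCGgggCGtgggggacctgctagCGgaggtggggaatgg
chr1:181257196-181257495: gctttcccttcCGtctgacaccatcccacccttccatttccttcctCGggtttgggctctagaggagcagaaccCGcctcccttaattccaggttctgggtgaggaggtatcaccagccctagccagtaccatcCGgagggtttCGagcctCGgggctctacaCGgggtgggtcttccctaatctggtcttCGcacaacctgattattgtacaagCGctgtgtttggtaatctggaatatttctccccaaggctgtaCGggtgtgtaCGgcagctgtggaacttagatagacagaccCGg
chr9:46257440-46257739: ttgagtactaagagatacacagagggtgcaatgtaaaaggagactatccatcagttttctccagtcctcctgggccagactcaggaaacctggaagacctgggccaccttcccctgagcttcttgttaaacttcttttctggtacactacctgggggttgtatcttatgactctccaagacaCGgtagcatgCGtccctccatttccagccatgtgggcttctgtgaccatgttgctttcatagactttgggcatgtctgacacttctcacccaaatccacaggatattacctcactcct
chr5:90447553-90447852: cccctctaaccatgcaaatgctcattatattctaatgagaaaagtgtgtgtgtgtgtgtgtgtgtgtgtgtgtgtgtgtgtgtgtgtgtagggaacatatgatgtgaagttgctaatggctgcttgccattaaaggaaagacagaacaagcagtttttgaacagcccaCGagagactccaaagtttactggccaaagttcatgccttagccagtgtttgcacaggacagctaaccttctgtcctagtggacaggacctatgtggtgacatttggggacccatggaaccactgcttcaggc

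The next 5 come from windows with most of their reads on a single strand. Each is 100 bases on the transcribed strand, and the capitals mark the 50 bases that end at the window's most frequent 3′ end. The stretch chr2:149319550-149319649 (plus strand) lay in the window with the largest rise from 3 to 18 months under the naming rule, and chr16:4812329-4812428 (minus strand) in one of the 5 largest falls. The stretch chr7:66501021-66501120 (plus strand) lay in a long transcribed run near Aldh1a3. At these 3 ends 6.38%, 4.43% and 1.60% of the window's reads stopped, and the 10 fullest positions of chr2:149319001-149320000, chr16:4812001-4813000 and chr7:66501001-66502000 held 27.7%, 15% and 10.7%. The stretches chr3:5860642-5860741 and chr7:98815414-98815513 (both plus strand) show the other kinds of window, namely the window with most reads of all and a tRNA gene (n-TPtgg8 in RefSeq), where the end shown took 2.73% and 20.9% of the reads.
chr2:149319550-149319649: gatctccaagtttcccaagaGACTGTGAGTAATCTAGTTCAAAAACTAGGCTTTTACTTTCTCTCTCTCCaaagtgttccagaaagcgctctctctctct
chr16:4812329-4812428: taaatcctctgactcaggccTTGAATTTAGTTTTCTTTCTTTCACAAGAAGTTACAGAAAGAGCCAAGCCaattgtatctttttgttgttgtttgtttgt
chr7:66501021-66501120: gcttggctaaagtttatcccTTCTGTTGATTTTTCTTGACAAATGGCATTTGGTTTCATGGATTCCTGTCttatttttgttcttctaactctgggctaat
chr3:5860642-5860741: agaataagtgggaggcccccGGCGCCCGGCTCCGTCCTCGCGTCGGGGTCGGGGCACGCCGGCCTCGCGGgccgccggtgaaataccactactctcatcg
chr7:98815414-98815513: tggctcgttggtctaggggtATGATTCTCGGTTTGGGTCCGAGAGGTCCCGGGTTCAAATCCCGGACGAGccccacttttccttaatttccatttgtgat

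The windows were of 3 kinds, which were told apart by how the reads lay, a division made after the data had been seen. In 3959 windows (82.7%) the 10 fullest positions held at most 50% of the reads, and at least 50% of the reads remained when each position counted for at most 5 reads a library. These windows are called spread. In 745 windows (15.6%) 1 or both of these limits were missed without a match to a known stable RNA, and they are called piled up. For 3 of these it was the second limit alone, among them chr3:5860001-5861000, whose 10 fullest positions held 24.3% of a mean of 120639 reads. The remaining 84 windows (1.75%) had most of their reads in a match to a stable RNA: 38 to 4.5S RNA, 37 to tRNA, 7 to 18S to 28S rRNA and 2 to 7SL RNA. Reads were divided the other way round, with 75.5% of all reads of the 4788 windows in piled up windows, 18.4% in spread ones and 6.09% in stable RNA matches. A spread window had reads at a median of 142 positions and a piled up window at 13. The RNA set that was matched held 28S rRNA only in part, so a piled up window without a match is not shown to lack such a copy. This holds for chr3:5860001-5861000 too, the window with most reads, whose class does not show that its reads come from polymerase II at that place.

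Transcription in most windows ran on a single strand. In 4332 of 4788 windows (90.5%) at least 90% of the reads lay on a strand, and 4515 windows passed a limit of 80% and 4136 a limit of 95%. The share was 81.2% within 10 kb of genes and 92.8% in genes under the same read rule. In 213 windows (4.45%) the lesser strand held at least 25% of the reads, against 9.63% of windows within 10 kb of genes and 3.28% of those in genes. Windows between these limits numbered 243. The plot of strand and distance shows the 2 peaks at either end of the scale. Among spread windows, 3556 were 1-stranded (89.8%) and 188 were 2-stranded (4.75%), and these 2 sets are followed below. Over the spread windows as a whole, 96.5% ± 0.0895, 97.5% ± 0.21 and 97.7% ± 0.51 (SD, n = 3 each) of the reads lay on each window's major strand at 3, 12 and 18 months. Every library of 3 months (96.4% to 96.6%) lay below every library of 12 months (97.4% to 97.8%) and of 18 months (97.2% to 98.3%).

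**Figure D1:**
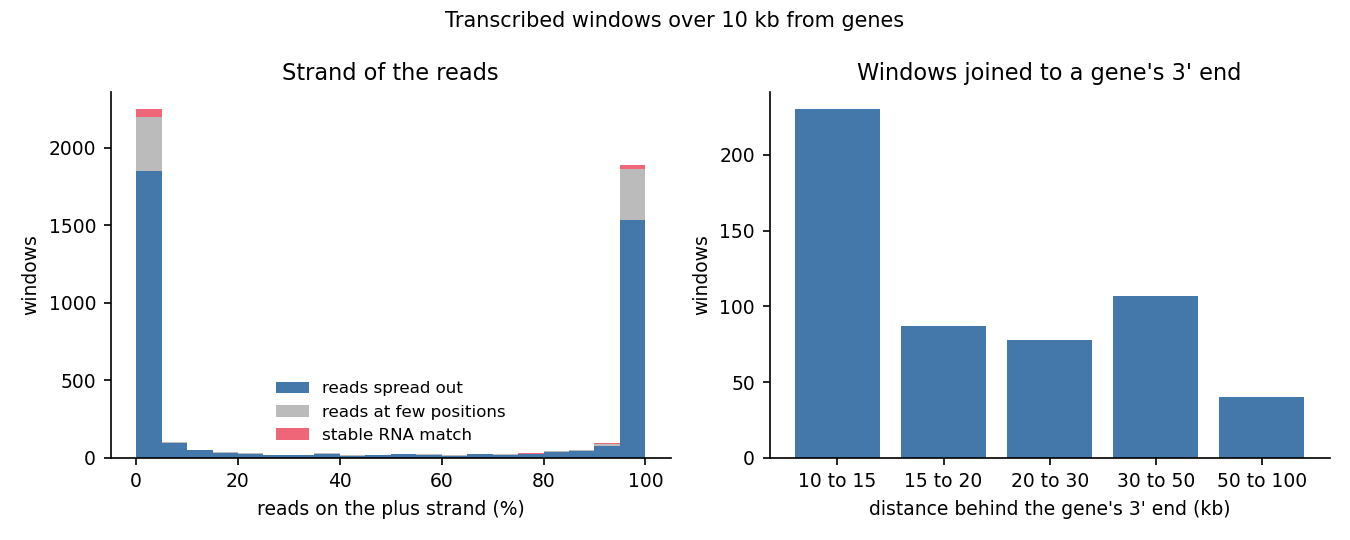
The left panel counts the 4788 windows by the percentage of their reads on the plus strand, in bins of 5 percentage points stacked by kind, and most windows lie in the bins at either end. The right panel counts the 542 spread 1-stranded windows joined to a gene's 3′ end by their distance behind that end in kb, with 230 windows at 10 to 15 kb and 40 at 50 to 100 kb.

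Whether a window continued the transcription of a gene was asked by following the signal on its strand, window by window at a mean of at least 1 read per library, until it broke off or met a gene on that strand. Of the 3556 spread 1-stranded windows, 542 (15.2%) were joined without a break to the 3′ end of 1 of 91 genes, 610 (17.2%) led into the start of a gene, 154 (4.33%) were joined to genes on both sides, and 2250 (63.3%) were joined to no annotated gene. The windows behind a gene lay a median of 16.7 kb past its 3′ end, and the farthest 75 kb. Counting the windows joined on both sides too, 115 genes had windows behind them (70 of them protein-coding), with a median of 3 windows a gene and 13 genes with 10 or more. Reads per kb in these windows stood at a median of 41.6% of the level in the gene body (quartiles 19.1% and 72.7%, 114 genes), and exceeded it behind 20 genes. The rule of at least 10 reads left out weaker windows, which raises these percentages. A weak gene body raises them further, as for 3110021N24Rik (0.0181 RPKM in its body, 1592%).

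Uri1, which encodes a prefoldin-like protein, had the most windows behind it: 59, from 12.0 to 75 kb past its 3′ end, at 0.550 RPKM against 1.80 in its gene body (30.5%). Behind the noncoding genes Gm31508, Gm27216 and Prox1os lay 53, 43 and 41 windows, at 52.1%, 46.6% and 24.2% of the gene body level. Prox1os runs antisense to Prox1, a homeodomain factor of hepatocytes. Behind Cyp2j5, a cytochrome P450, 16 windows stood at 3.84 against 6.72 (57.2%). Except for Uri1, which heads the count, these genes were chosen after their values were seen.

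A later gene annotation overlapped some of the windows joined to no GENCODE gene. The overlap was counted by position only, whatever the strand of the gene. RefSeq genes overlapped 29.4% of the 4788 windows, against 7.96% of all windows over 10 kb from GENCODE genes. Most often these were long noncoding RNA genes (1001 windows), while protein-coding genes overlapped 360 windows. Among spread 1-stranded windows the share was 49.8% for those that led into a gene start, 19.9% for those behind a 3′ end and 30.6% (688 of 2250) for those joined to no gene. The windows were not evenly placed among chromosomes. They made up 1.26% of the far windows of chr19, 1.24% of chr11 and 1.09% of chr9, and 0.333% of chr2, the lowest. Their GC content had a median of 43.6%, against 39.9% in all far windows, and 23.8% of a window's bases were repeat-masked at the median, against 29.1%.

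Against the nearest gene of any type, 31.4% of the spread 1-stranded windows lay downstream of it on its strand (1117), 26.9% upstream on the opposite strand (955), 24.7% upstream on its strand (877) and 17.1% downstream on the opposite strand (607). The nearest gene was protein-coding for 41.4% of all 4788 windows, a processed pseudogene for 22.1% and a long intergenic noncoding RNA gene for 18.7%, over 1309 genes in all. The 10 genes nearest to the most windows were Gm22866 (107 windows), Nudt7 (90), Gm12287 (80), Gm12288 (75), Rpl21-ps14 (61), Uri1 (55), Tln2 (51), Rpl28-ps4 (49), Thrb (47) and Dhx40 (44). Nudt7 encodes a peroxisomal hydrolase of coenzyme A, Tln2 a talin that links integrins to actin, Thrb a thyroid hormone receptor and Dhx40 a helicase. The windows nearest to Tln2 overlapped, at least in part, Tln2 itself as RefSeq annotates it. Long stretches of neighbouring windows weigh heavily in these counts: the 107 windows near Gm22866 lay in 7 runs, the 61 near Rpl21-ps14 in 10 and the 55 near Uri1 in 1.

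The 188 spread 2-stranded windows differed in layout and sequence from the rest. In 126 of them (67%) the minus strand reads lay to the left of the plus strand reads, a divergent layout. Over all 188, the mean position of the plus strand reads less that of the minus strand reads had a median of 138 bases (quartiles -92.5 and 242). The same layout was found in 45.2% of 2-stranded windows within 10 kb of genes, 55.7% of those in genes and 52.0% of the 25 piled up ones. Of the 4 windows shown above, chr1:181257001-181258000 had the reverse layout, where the difference of the mean positions was -291 bases. As runs of 1 window, with no other window of the set within 1 kb, stood 31.9% of the 188, against 4.95% of the spread 1-stranded windows. The median level was 0.471 RPM (reads per 1 kb window, scaled to the library's total), against 0.6. Their GC content had a median of 48.1% (43.3% in the 1-stranded windows), and 28.7% lay in a RefSeq gene.

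The 2-stranded windows were rich in CG dinucleotides, with a median of 14 per window against 5 in all far windows, and 72.9% of them against 19.9% held 10 or more. The spread 1-stranded windows behind a gene end and those joined to no gene lay between, with medians of 8 and 7, and 38.6% and 34.1% held 10 or more. Letters of known motifs were searched on both strands and compared with 807529 far windows. GGGCGGG (GC box) was in 14.4% of the 2-stranded windows against 2.98%, CACGTG (E-box) in 18.6% against 7.78% and CAAAGTCCA (an HNF4A site) in 5.32% against 1.26%. TGACTCA (AP-1) was in 18.1% against 14%, TGTTTAC (FOXA) in 12.2% against 14.6% and TTGCNNAA (C/EBP, looser form) in 38.3% against 41.2%. The CTCF motif was in 1 window, AATAAA (polyadenylation signal) was in 61.7% against 81.6% and TATAAA in 44.7% against 68.3%. TTGCGCAA (C/EBP, strict form, which also matches the looser form) was in no 2-stranded window and in 0.0663% of far windows. In the 1-stranded windows behind a gene end and in those joined to no gene, CAAAGTCCA was in 0.923% and 0.889%, GGGCGGG in 6.46% and 5.42%, CACGTG in 9.04% and 10.4%, and TGACTCA in 18.1% and 16.4%, so that the last did not set the 2-stranded windows apart. GC-rich letters are found more often where GC is high, so these shares describe the windows and not binding.

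With age, the share of all reads that lay over 10 kb from genes did not show a trend. It was 3.09%, 3.62% and 3.27% at 3 months, 3.67%, 2.77% and 3.27% at 12 months, and 3.29%, 3.46% and 3.02% at 18 months, and the 3 ranges overlapped. The means were 3.33% ± 0.27, 3.23% ± 0.45 and 3.26% ± 0.22 (SD, n = 3), with a slope of -0.0621 percentage points per 12 months (two-sided, exact permutation of the 9 ages, p = 0.766). The pairs of ages gave exact p = 0.8, 0.9 and 0.9 for 18 against 3, 12 against 3 and 18 against 12 months, where 3 libraries against 3 cannot go below 0.1. Without 3 months replicate 2 or without 18 months replicate 3 the slope was positive (0.0611 and 0.00934), and it was 0.0326 when each position counted for at most 5 reads.

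The summed levels of the 3 kinds of window overlapped between 3 and 18 months. Spread windows held 3622 ± 109, 4206 ± 428 and 3953 ± 663 RPM at 3, 12 and 18 months, piled up windows 17271 ± 1189, 16074 ± 3102 and 16672 ± 1738, and stable RNA matches 1235 ± 177, 1548 ± 350 and 1387 ± 331 (SD, n = 3). Windows behind gene ends held 324 ± 2.57 RPM at 3 months, 423 ± 17.2 at 12 and 401 ± 97.7 at 18, where the lowest library of 18 months (294) lay under every library of 3 months. Since the rule used the reads of all 9 libraries, no test was made of these sums.

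**Figure D2:**
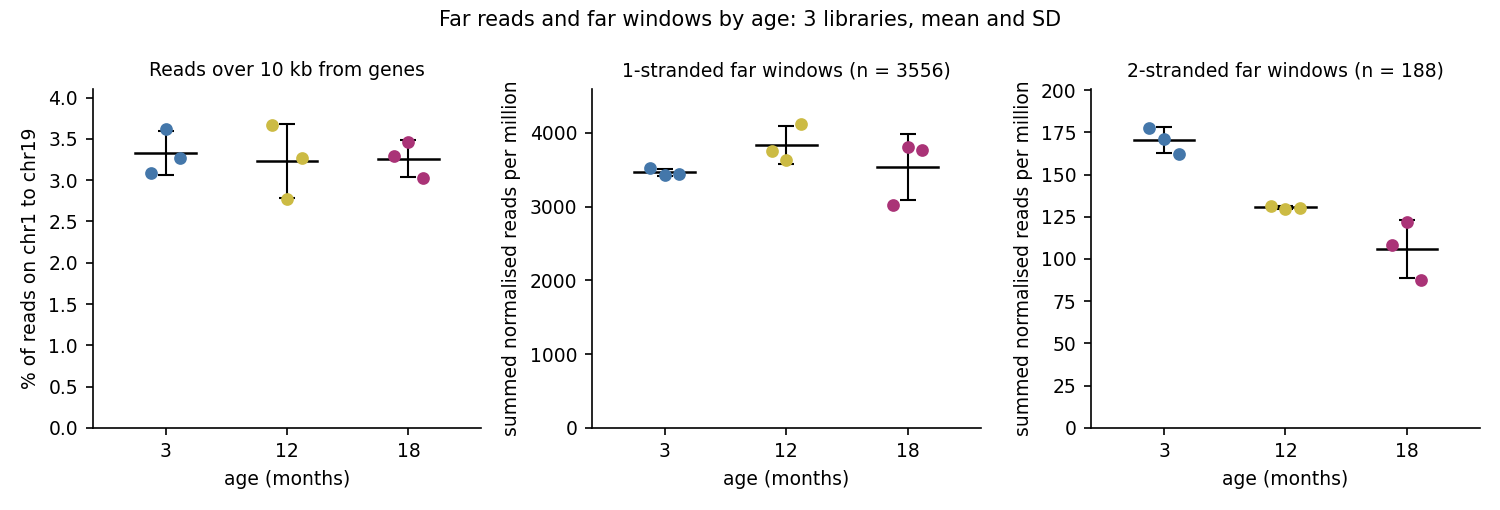
Each point is a library, with the mean and SD of the 3 libraries per age. The left panel gives the percentage of reads on chr1 to chr19 that lay over 10 kb from genes, the middle panel the summed normalised RPM of the 3556 spread 1-stranded windows, and the right panel that of the 188 spread 2-stranded windows, in which the ages do not overlap between 3 months (162 to 177) and 18 months (87.7 to 122).

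Window by window, differences between ages were common. At an edgeR quasi-likelihood adjusted p under 0.05 over all 406304 windows, 736 of the 4788 windows (15.4%) differed between 18 and 3 months, 406 higher and 330 lower at 18 months, against 5.86% of all windows. Between 12 and 3 months 665 windows (13.9%) differed, 385 higher and 280 lower, against 3.29%. These 2 comparisons share the libraries of 3 months. Between 18 and 12 months 91 windows (1.90%) differed, 68 higher and 23 lower, against 0.268% (0.145% higher, 0.122% lower). The split into higher and lower depended on the setting. For 18 against 3 months it was 505 higher and 240 lower without TMM factors, 237 and 235 at a minimum mean of 20 reads, and 143 and 197 with libraries thinned to the shallowest. It was 259 and 270, 207 and 247, and 221 and 305 without 3 months replicate 1, 3 months replicate 3 or 18 months replicate 2. For 12 against 3 months it was 478 and 221 without TMM factors, 168 and 162 thinned and 261 and 262 without 3 months replicate 1, and for 18 against 12 months DESeq2 gave 19 and 25. In that last comparison DESeq2 set no adjusted p for 83.7% of the 4788 windows, so its split covers only the others. The libraries of the 2 ages did not overlap at all in 1237 windows (25.8%), 1533 (32.0%) and 799 (16.7%) for the 3 comparisons in the same order, where 23.3%, 20.4% and 16% of all windows did not. A window with a mean of under 10 reads at an age met the read rule through the ages in which it was higher, so the counts include differences that the rule favoured, which holds for every window of the whole table too. Where a window named below, or the average window of a run, held under 10 reads at either age compared, its values and fitted change are given as a description with no p.

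The calls depended on single libraries. For 18 against 3 months 273 of the 736 calls (139 higher, 134 lower) held whichever library was left out, and 483 were also made by DESeq2. For 12 against 3 months 235 of 665 held, and for 18 against 12 months 13 of 91. Leaving out 3 months replicate 3 left 454 windows for 18 against 3 months and 371 for 12 against 3 months, and leaving out 12 months replicate 2 left 291 for the latter. For 18 against 12 months, 51, 15 and 52 windows were called without 12 months replicate 1, 2 or 3, and 204 without 18 months replicate 2. Without 18 months replicate 1, which stood apart, 735 windows (432 higher, 303 lower) were called for 18 against 3 months.

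The kinds of window moved in different proportions. Of 3959 spread windows 598 differed between 18 and 3 months, 374 higher and 224 lower, and of 745 piled up windows 120 did, 22 higher and 98 lower. Over all windows tested 2.35% were higher and 3.51% lower. At 12 against 3 months 368 spread windows were higher and 203 lower, and 10 piled up windows were higher and 70 lower, where 1.84% and 1.45% of all windows were. Windows behind a gene end were called higher at 18 than at 3 months in 58 of 542 cases and lower in 8, with a median log2 change of 0.25. These calls lay in 15 runs, and in the run behind Uri1 alone 32 windows were called higher. Windows joined to no gene were called higher in 248 and lower in 111 of 2250 cases, in 84 runs, with a median of 0.07. By position, 158 of the 607 windows downstream of the nearest gene on the opposite strand were called (26%, 115 higher and 43 lower), against 7.41% upstream on the same strand, 12.8% upstream on the opposite strand and 14.9% downstream on the same strand. Runs of many windows weigh heavily in such counts, and the runs are therefore given as units further on.

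**Figure D3:**
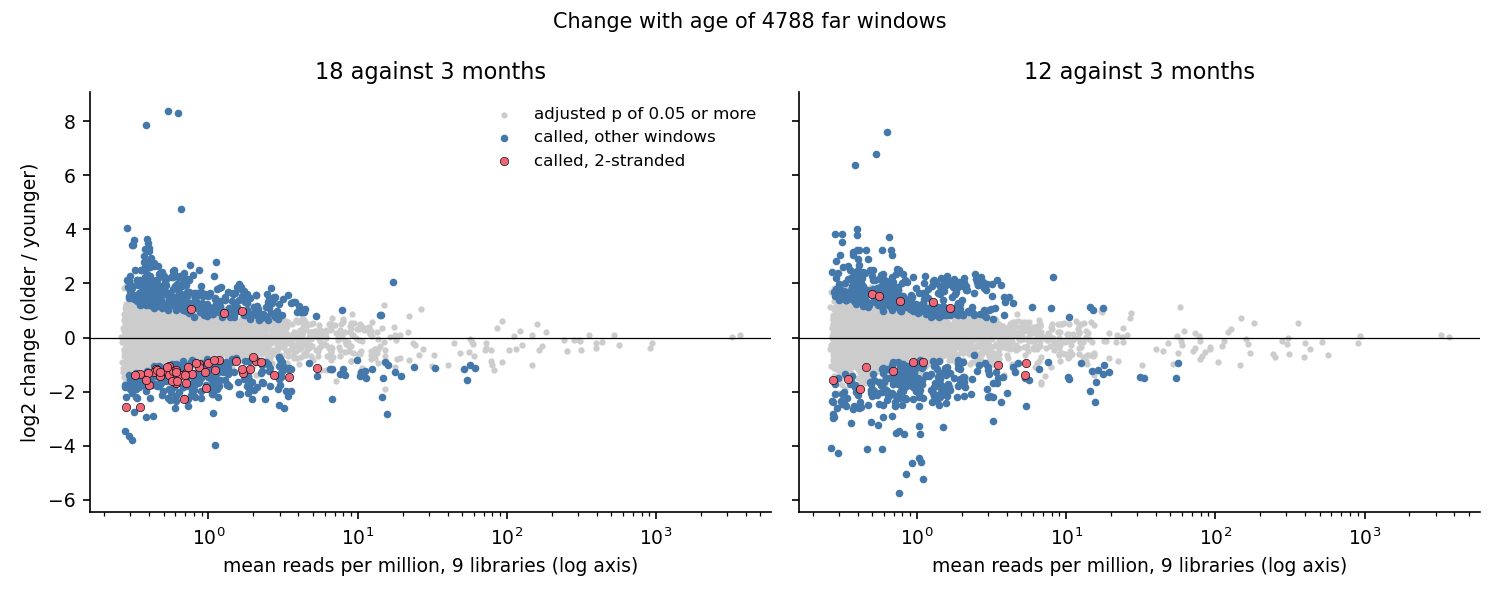
Each point is 1 of the 4788 windows, with the mean RPM over the 9 libraries on a log axis and the log2 change on the vertical axis, for 18 against 3 months (left) and 12 against 3 months (right). Coloured points passed the edgeR adjusted p of 0.05, and 48 of the 51 called spread 2-stranded windows in the left panel lie below 0.

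The summed transcription of the 2-stranded windows was lower in older liver. Summed over the 188 spread 2-stranded windows, normalised RPM (RPM divided by the library's TMM factor) were 177, 171 and 162 at 3 months, 132, 130 and 130 at 12 months and 108, 122 and 87.7 at 18 months. All 3 libraries of 12 months lay below all of 3 months and all 3 of 18 months below both, and the means fell from 170 ± 7.66 to 131 ± 0.98 and 106 ± 17.1 (SD, n = 3). Without the TMM factors 12 months (121 to 142 RPM) and 18 months (97.7 to 125) overlapped, and both lay below 3 months (154 to 171). Counting each position for at most 5 reads gave 165 ± 9.30, 129 ± 0.69 and 105 ± 16.6. The 1-stranded spread windows gave 3464 ± 47.0, 3838 ± 255 and 3532 ± 446 on the same scale, with the ages overlapping between 3 and 18 months. The reads on their lesser strand alone, however, also went from 34.0 ± 2.14 to 27.8 ± 2.33 and 27.1 ± 2.80, with no overlap between 3 and 18 months. The mitochondrial share and the single markers named above also separated 3 from 18 months, and their part in this result was not tested.

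Tested singly, 51 of the 188 windows (27.1%) differed between 18 and 3 months, 3 higher and 48 lower, where 3.51% of all windows were lower, and the median log2 change over the 188 was -0.72, with 84.0% of them negative. Between 12 and 3 months 5 were higher and 10 lower (median -0.36), where 1.84% and 1.45% of all windows were, and between 18 and 12 months 1 was higher and 1 lower (median -0.37), where 0.145% and 0.122% were. Called falls from 3 to 18 months included windows with a mean of under 10 reads at 18 months. This was so for most of the 10 largest called falls, such as chr11:101700001-101701000 and chr5:90447001-90448000. These 2 held 11 and 8 reads over the 3 libraries of 18 months together. Windows with a mean of under 10 reads at 18 months met the rule through the younger ages, so the rule favoured their fall. The counts above include them. The count for 18 against 3 months fell to 22 without 3 months replicate 1, to 30 without 3 months replicate 2 and to 22 without 18 months replicate 3, to 31 without TMM factors and to 19 with all libraries thinned to 1 depth. When the lesser strand had to hold at least 35%, a limit that fewer windows met, 33 windows were called. Calls were mostly lower in other 2-stranded windows too. Those in genes were called in 2255 of 12598 cases (17.9%, 128 higher and 2127 lower, median -0.27) and those within 10 kb of genes in 325 of 1637 (19.9%, 5 and 320, median -0.51), beside 59 of all 213 far 2-stranded windows (27.7%, 5 and 54, median -0.71). Relative to the mean at 3 months, the libraries of 18 months stood at 0.515 to 0.715 for the far windows, 0.603 to 0.716 within 10 kb and 0.685 to 0.827 in genes, and these ranges overlap. A difference between the 3 settings was not tested. The 1-stranded windows were called in 4.67% of cases in genes (8473 higher, 8184 lower, median 0.05), in 14.6% over 10 kb away (394 and 240, median 0.05) and in 11.6% within 10 kb (371 and 1236, median -0.24). Their libraries of 18 months stood at 0.718 to 0.888 of the mean at 3 months within 10 kb and at 0.874 to 0.988 in genes, again without overlap with 3 months, although with at most 5 reads per position those in genes overlapped. These levels were divided by TMM factors, which were 0.936 to 0.964 at 3 months and 0.978 to 1.11 at 18 months. Without the factors, all reads in genes took 89.5% to 90.4% of a library at 3 months and 90.5% to 91.6% at 18 months. A fall of the 1-stranded windows in genes is therefore not shown. For the far spread 1-stranded windows the libraries of 18 months stood at 0.871 to 1.1, with overlap.

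**Figure D4:**
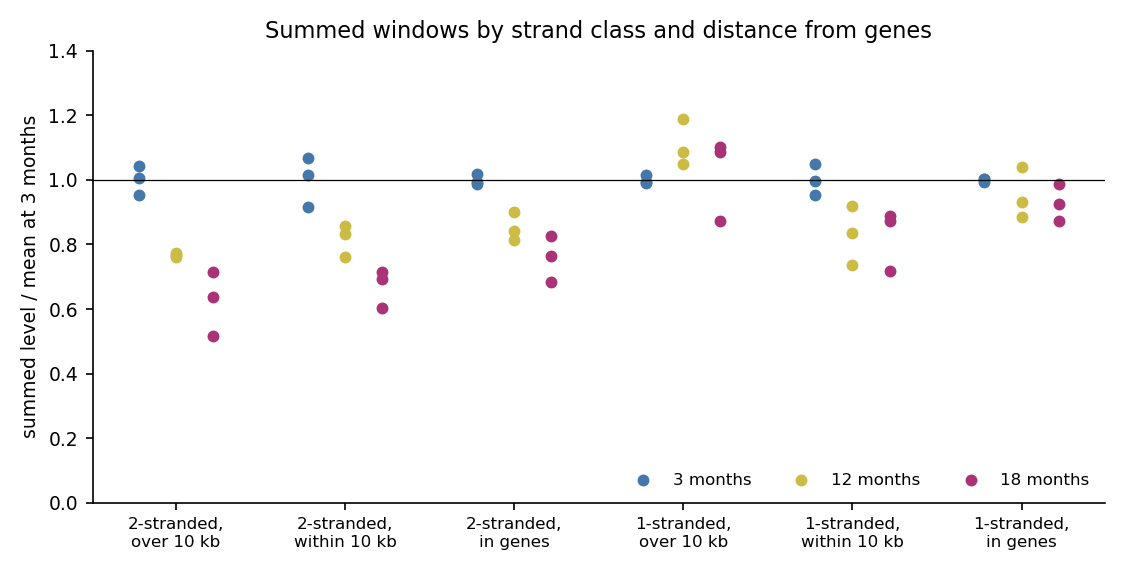
Each point is a library, given as the summed normalised level of a set of windows divided by its mean at 3 months, for 2-stranded and 1-stranded windows over 10 kb from genes (spread windows), within 10 kb of genes and in genes. The 18-month points lie below all 3-month points in each of the 3 sets of 2-stranded windows and in the 1-stranded windows within 10 kb of genes and in genes, but not in the far 1-stranded windows. All levels are divided by TMM factors, which were higher in every library of 18 than of 3 months.

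Examples of 2-stranded windows, chosen after their values were seen, include the 4 whose sequences are shown. In chr4:8647001-8648000 (54.0% of reads on the plus strand, overlapping Gm8273 of RefSeq) normalised RPM were 5.62, 5.4 and 6.20 at 3 months, 2.86, 2.99 and 2.55 at 12 months and 2.17, 2.53 and 1.60 at 18 months. No library of 12 or 18 months reached the lowest of 3 months, and the log2 change from 3 to 18 months was -1.45 ± 0.19 (SE; edgeR adjusted p = 6.65e-05). In chr1:181257001-181258000, 45 kb from Wdr26, levels were 4.76, 4.12 and 3.51, then 2.74, 2.80 and 2.45, then 1.47, 2.23 and 0.910, a log2 change of -1.39 ± 0.24 (adjusted p = 0.000992). Again the ages did not overlap. These 2 windows, chr9:46257001-46258000 and chr2:27582001-27583000 kept their call under each alternative tried for them.

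The next examples lay upstream of Apoa5 and Alb, although none of the 6 runs nearest to a listed plasma protein or apolipoprotein gene, Alb among them, was called (median -0.11). In chr9:46257001-46258000, 10.6 kb upstream of Apoa5, whose product lowers plasma triglycerides, normalised RPM were 2.15, 2.49 and 2.69 at 3 months, 2.39, 1.46 and 1.41 at 12 months and 0.981, 1.09 and 0.854 at 18 months. The log2 change from 3 to 18 months was -1.32 ± 0.22 (adjusted p = 0.000832), while 12 months replicate 1 lay among the libraries of 3 months. In chr5:90447001-90448000, 12.9 kb upstream of Alb, the gene of albumin, the libraries held 24, 17 and 19 reads at 3 months, 3, 16 and 6 at 12 months and 3, 5 and 0 at 18 months (a fitted log2 change of -2.55 ± 0.52). The counts are small, and those of 18 months lay below all of 3 months. The window chr2:27582001-27583000, which overlapped Gm52506 of RefSeq, went from 8.59, 7.69 and 10.1 at 3 months to 3.09, 3.23 and 3.86 at 12 months, and stood at 3.72, 5.4 and 2.84 at 18 months (-1.13 ± 0.22, adjusted p = 0.00247 for 18 against 3 months).

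Among windows named by the size of their change, the largest rise from 3 to 18 months was in chr2:149319001-149320000, near the pseudogene Gm14132. The 3 libraries of 3 months held 0, 3 and 2 reads, those of 12 months 11, 24 and 26, and those of 18 months 14, 65 and 43, and the fitted log2 change was 4.77 ± 0.46. It lay in a run of 4 windows, chr2:149319001-149323000, which held 5 reads in all at 3 months, 198 at 12 and 427 at 18 months, and for which the fit gave 6.58 ± 0.57. With so few reads at 3 months, the windows of this run met the rule of 10 reads through the older ages, so that they had to differ, and the values are given as a description with no test.

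Other rises came at different ages. In chr11:101923001-101924000, 28.6 kb from Meox1, a homeobox gene, normalised RPM went from 0.196, 0.114 and 0.197 at 3 months to 0.991, 1.11 and 0.786 at 12 months and 0.841, 1.07 and 1.30 at 18 months (fitted 2.67 ± 0.31 for 18 against 3 months). In chr12:19119001-19120000 the level stayed at 0.308, 0.257 and 0.351 and then 0.233, 0.387 and 0.295, and stood at 2.80, 1.25 and 1.71 at 18 months (2.50, adjusted p = 1.73e-05). The first of these was high from 12 months on, and the second at 18 months only. In chr14:25682001-25683000, 11.2 kb from Ppif, which encodes mitochondrial cyclophilin D, the level was 0.168, 0.0572 and 0.175 at 3 months, 1.81, 1.31 and 1.05 at 12 months and 0.140, 0.661 and 0.551 at 18 months (fitted 3.25 ± 0.38 for 12 against 3 months). The remaining rises among the 5 largest from 3 to 18 months were in piled up windows, chr7:76151001-76152000 (2.78, a call lost with at most 5 reads per position) and chr19:15551001-15552000 (2.39, a call lost without 18 months replicate 2, by DESeq2 and with libraries thinned to the shallowest).

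Of the 5 largest falls from 3 to 18 months, 4 were in piled up windows (chr15:45630001-45631000, -3.98, chr13:50955001-50956000, -2.84, chr16:76528001-76529000, -2.61, chr17:44121001-44122000, -2.59). With each position counted for at most 5 reads, chr13:50955001-50956000 and chr17:44121001-44122000 turned to 0.21 and 0.12, and DESeq2 did not call the first. The spread window among them was chr16:4812001-4813000, 21.7 kb from Cdip1, a p53 target. Its normalised RPM were 2.3, 1.86 and 2.04 at 3 months, 0.933, 0.682 and 1.31 at 12 months and 0.140, 0.365 and 0.276 at 18 months, a steady fall without overlap between any 2 ages (fitted -2.80 ± 0.29 for 18 against 3 months).

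Some windows were lowest at 12 months. In chr5:86949001-86950000, near Ugt2b1, which encodes a glucuronosyltransferase, normalised RPM were 2.43, 1.57 and 3.13 at 3 months, 0.0583, 0.129 and 0.0982 at 12 months and 0.841, 0.592 and 0.662 at 18 months. The fitted log2 change was -4.44 ± 0.35 for 12 against 3 months, and the change was -1.85 ± 0.26 for 18 against 3 months (adjusted p = 0.000101), with no overlap of the 3 ages. In chr9:74520001-74521000 the level was 6.21, 5.35 and 10.2, then 0.699, 0.958 and 2.00, then 12.5, 4.76 and 5.98 (2.59 for 18 against 12 months, adjusted p = 0.00438). Its neighbour chr9:74524001-74525000, 241 kb from Wdr72, held 15, 10 and 130 reads at 3 months, 1, 1 and 0 at 12 months and 33, 30 and 15 at 18 months. Both of these chr9 windows overlapped Gm33459 of RefSeq. By contrast, chr19:39375001-39376000, by the P450 gene Cyp2c38, was low at 18 months, with 3.64, 2.46 and 2.06, then 3.38, 5.44 and 2.59, then 1.05, 0.638 and 0.221 (-2.81 ± 0.36 for 18 against 12 months, adjusted p = 0.00248, and -2.28 ± 0.36 for 18 against 3 months, adjusted p = 0.000458). Its reads lay on the minus strand, and it overlapped Cyp2c39 of RefSeq by position, whatever the strand of that gene. The piled up window chr8:41630001-41631000 had a fitted log2 change of -2.08 for 18 against 12 months.

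Few windows passed the test of strand balance, which has few reads per strand to work with, so windows that did not pass are not shown to be unchanged. For 18 against 3 months 3 windows passed the test of strand by age (edgeR, adjusted p under 0.05), against 0.0625% of all windows, with 0 to 3 when a library was left out. In chr19:36795001-36796000 the plus strand held 71.8%, 69.3% and 79.3% of reads at 3 months, 60.7%, 45.3% and 44.4% at 12 months and 53.4%, 36.1% and 26.4% at 18 months (log2 change of the strand ratio -2.24 ± 0.43, adjusted p = 0.000834). In chr4:150738001-150739000, which overlapped Gm36600 of RefSeq, it rose from 9.09%, 36.4% and 27.3% at 3 months to 80%, 66.7% and 92.6% at 18 months, on 5 to 27 reads a library (3.68 ± 0.84, adjusted p = 0.021). In chr7:66501001-66502000, one of the sequences shown, it rose from 73.9%, 81.6% and 84.2% to 100%, 99.3% and 93.4% (3.29 ± 0.75, adjusted p = 0.0233). In each of these the libraries of 3 and 18 months did not overlap. For 12 against 3 months 1 window passed, where 0.0635% of all windows did, and for 18 against 12 months edgeR called 0, where 0.00689% of all windows passed, with 44 windows at an unadjusted p under 0.05. The 5 windows with the most even strands among the 100 with most reads were all piled up or tRNA windows, led by chr13:51618001-51619000. Their plus strand shares were 86.8%, 93.4%, 3.78%, 1.71% and 99.4%, so none of them was 2-stranded.

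Windows at most 1 kb apart were joined to 1493 runs and tested together with the bodies of 14291 protein-coding genes. Between 18 and 3 months 143 runs differed (9.58%), 63 higher and 80 lower, against 8.13% of all 15784 runs and gene bodies (4.45% higher, 3.67% lower). Between 12 and 3 months 80 did (5.36%), 54 higher and 26 lower, against 3.68% (2.51% higher, 1.17% lower), and between 18 and 12 months 2, both lower, against 0.0253% (0.00634% higher, 0.019% lower). Among the 723 runs made mostly of spread windows the counts were 96 (51 higher, 45 lower), 65 (50 and 15) and 0, the last with 128 runs at an unadjusted p under 0.05 and 34 called by DESeq2. Leaving out 3 months replicate 2 or 3 or 18 months replicate 3 brought the 143 runs to 57, 44 and 67. For 12 against 3 months 36, 26, 52 and 27 runs were called without 3 months replicate 2 or 3 or 12 months replicate 1 or 2. The 2 runs for 18 against 12 months became 1 without 12 months replicate 2, 0 without 12 months replicate 3 and 22 without 18 months replicate 2.

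Both long runs behind a gene described here, chosen after their values were seen, were higher in older liver. The run chr7:37888001-37948000, 58 windows behind Uri1, held 18.1, 22.3 and 20.1 normalised RPM at 3 months, 35, 35.3 and 38.7 at 12 months and 29.2, 34.5 and 51.1 at 18 months. All libraries of 12 and 18 months lay above those of 3 months (0.91 ± 0.20, adjusted p = 0.037, for 12 and 0.99 ± 0.20, adjusted p = 0.0197, for 18 against 3 months). The change in the Uri1 gene body was 0.27 (adjusted p = 0.137). The run's call for 18 against 3 months was lost without 3 months replicate 1 or 3, and that for 12 against 3 months without any 1 of the libraries of 3 and 12 months. Of the 55 windows nearest to Uri1, which lay in 1 run, 32 were higher at 18 and 18 at 12 than at 3 months, against 2.35% and 1.84% of all windows.

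Behind the noncoding gene Gm27216, the 43 windows of chr9:83186001-83230000 held 21.4, 24.8 and 23.6 normalised RPM at 3 months, 38.6, 44.2 and 39.5 at 12 months and 30.4, 45.9 and 35 at 18 months. The libraries of 3 months again lay below the others (0.87 ± 0.14, adjusted p = 0.012, and 0.73 ± 0.14, adjusted p = 0.017). The call for 18 against 3 months was lost without 3 months replicate 1 or 3, and that for 12 against 3 months without 3 months replicate 3 or 12 months replicate 2. Hmgn3, the nearest protein-coding gene, which encodes a nucleosome-binding protein, had a log2 change of 0.61 (adjusted p = 0.138 for 18 against 3 months).

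Other runs, also chosen after their values were seen, were higher in older liver. The run chr19:49293001-49334000, 35 windows 487 kb from the nearest protein-coding gene, Sorcs3 (a receptor of the sortilin family), held 7.47, 6.60 and 7.54 at 3 months, 18.9, 25 and 27.5 at 12 months and 12.1, 22.4 and 15.2 at 18 months. All libraries of 12 and 18 months lay above those of 3 months, with fitted log2 changes of 1.79 ± 0.22 and 1.27 ± 0.22. The run chr7:66482001-66533000, 49 windows 54.5 kb upstream of Aldh1a3, which encodes a retinaldehyde dehydrogenase, held 29.4, 44.5 and 34.2, then 130, 126 and 157, then 45.4, 128 and 88.7. The libraries of 12 months stood apart from those of 3 months (1.99 ± 0.32, adjusted p = 0.0115, a call lost without 3 months replicate 3), while at 18 months replicate 1 lay close to them (1.34 ± 0.31, adjusted p = 0.0342, a call lost without any 1 library of 3 months, 12 months replicate 3, or 18 months replicate 2 or 3). Near Ppp1r9a, the gene of the actin-binding protein neurabin, chr6:4857001-4871000, whose signal led without a break into a gene start on its strand, held 3.19, 3.09 and 1.93 at 3 months and 3.79, 10.5 and 13.1 at 18 months (fitted 1.85 ± 0.39), and the gene body rose by 0.89 (adjusted p = 0.0325).

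**Figure D5:**
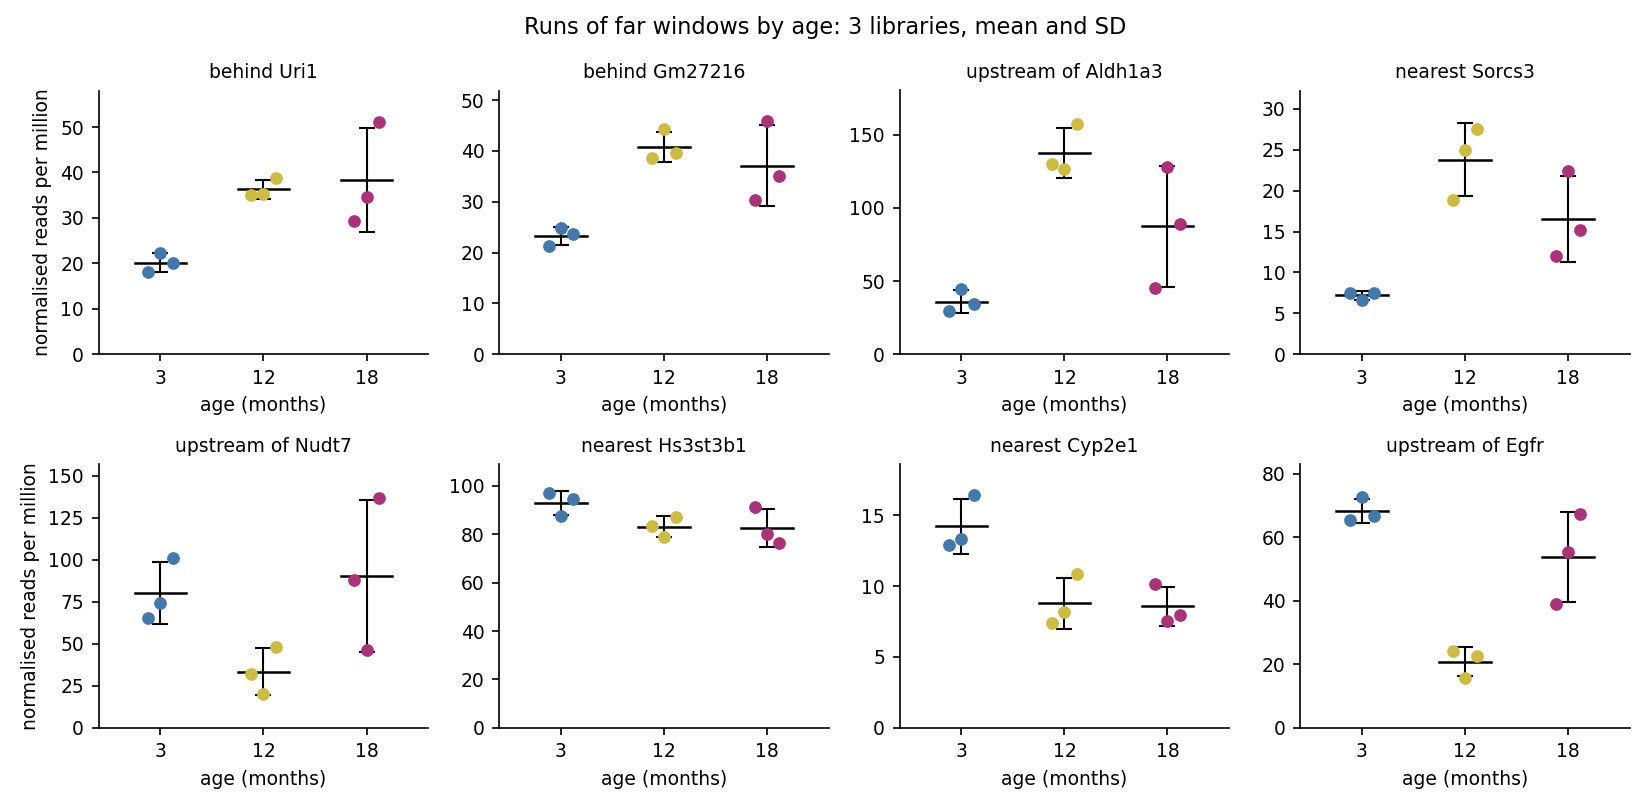
Each panel is a run of far windows, with normalised RPM summed over its windows, a point per library, and the mean and SD of the 3 libraries per age. The runs behind Uri1 and Gm27216, upstream of Aldh1a3 and nearest to Sorcs3 lie higher at 12 and 18 than at 3 months on average, while the run upstream of Egfr is low at 12 months (15.5 to 24.2) and the run nearest to Hs3st3b1 spans 76.2 to 96.9.

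Some runs near liver genes were low at 12 months. The run chr11:16656001-16689000, 33 minus strand windows 63.2 kb upstream of Egfr, the gene of the epidermal growth factor receptor, held 65.5, 72.6 and 66.6 normalised RPM at 3 months, 24.2, 15.5 and 22.5 at 12 months and 39.0, 55.4 and 67.2 at 18 months. The log2 change for 12 against 3 months was -1.67 ± 0.21 (adjusted p = 0.00419), kept in each alternative, and the Egfr gene body went the same way (-2.14, adjusted p = 0.0348). The neighbouring chr11:16694001-16722000 changed by -1.72 ± 0.32 (adjusted p = 0.0219, lost without 3 months replicate 2 or 3 or 12 months replicate 1 or 2), and both runs overlapped the RefSeq gene Gm39583. Near Ugt2b1, the 5 windows of chr5:86945001-86950000 held 9.34, 6.92 and 14.1 at 3 months, 1.05, 0.866 and 0.917 at 12 months and 7.01, 2.87 and 3.17 at 18 months (fitted -3.39 ± 0.39 for 12 against 3 months), while the Ugt2b1 gene body had a log2 change of -0.58 (adjusted p = 0.0871). The run chr8:114010001-114095000, 83 minus strand windows 38.6 kb upstream of Nudt7, held 65.4, 73.9 and 101, then 31.9, 20.1 and 48.2, then 88.2, 46.0 and 137. It did not pass the test (-1.21 for 12 against 3 months, adjusted p = 0.149), and 38 of the 90 windows nearest to Nudt7, which lay in 3 runs, some of them in the RefSeq gene Gm30107, were lower at 12 months when tested singly, against 1.45% of all windows.

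Others were lower at 18 than at 3 months. The run chr1:67097001-67107000, 10 windows 16 kb upstream of Cps1, which encodes the first enzyme of the urea cycle, held 18.5, 20.5 and 23.1 at 3 months, 12.2, 9.66 and 17 at 12 months and 5.54, 9.64 and 9.18 at 18 months. It fell by 1.27 ± 0.24 on the log2 scale (adjusted p = 0.0165, lost without 3 months replicate 3), and the Cps1 gene body fell by 0.77 (adjusted p = 0.0262). The run chr11:101682001-101698000, 14.2 kb downstream of the small GTPase gene Arl4d and overlapping Gm39391 of RefSeq, held 48.7, 51.7 and 47.7, then 30.7, 12.8 and 33.7, then 9.88, 20.5 and 7.88 (-1.89 ± 0.39, adjusted p = 0.0216), and Arl4d itself changed by -0.95 (adjusted p = 0.0348). Near Irf2bp2, a transcriptional corepressor gene, chr8:126660001-126667000 went from 15, 13.2 and 13.4 to 7.78, 3.81 and 3.22 (-1.51 ± 0.33, adjusted p = 0.0252), and the gene by -0.98 (adjusted p = 0.0199). In chr19:39371001-39379000, 10.6 kb downstream of Cyp2c38, levels of 20.2, 13.9 and 11.2 at 3 months and 19, 30.9 and 19.2 at 12 months stood against 6.87, 4.97 and 2.07 at 18 months (-1.72 ± 0.39, adjusted p = 0.0292). This run overlapped the RefSeq gene Cyp2c39, another P450 gene, by position only, which does not show transcription of that gene. The Arl4d run lost its call without 3 months replicate 2 or 3 or 18 months replicate 1 or 3, and the Irf2bp2 and Cyp2c38 runs without any 1 library of 3 months or 18 months replicate 2 or 3.

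The longest run did not pass the test. It was chr11:63653001-63786000, 127 minus strand windows near the pseudogene Gm12288, 99.8 kb from Hs3st3b1, a heparan sulfate sulfotransferase gene, and it held 96.9, 87.5 and 94.8 normalised RPM at 3 months, 83.6, 78.8 and 87.1 at 12 months and 91.2, 80.1 and 76.2 at 18 months (-0.12, adjusted p = 0.376). A set of 659 spread runs had a tested nearest protein-coding gene. For 18 against 3 months the log2 changes of run and gene had the same sign in 409 pairs (62.1%; Pearson r = 0.23 across pairs, which share libraries and are not independent). Of 82 called runs 60 had the sign of their gene (73.2%), and the gene was itself called in 11 of these 82 cases, each time in the same direction. Over the 659 pairs it was called in 63, of which 47 had the sign of the run, where 7.98% of all gene bodies were called. Neighbouring runs can share a gene, so this is given as a description.

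By the role of the nearest gene, few runs lay near the genes of the lists drawn up for liver. Of 21 liver transcription factors 6 were the nearest protein-coding gene of 22 runs, of which 1 was called, higher at 18 than at 3 months (median log2 change -0.13), where 8.13% of all runs and gene bodies were called and 4.45% were higher. This was chr1:137491001-137492000, a piled up window 531 kb from Nr5a2, a nuclear receptor of bile acid synthesis (fitted 2.23 ± 0.57, on under 10 reads a library at 3 months). The call was lost without any 1 library of 3 months, 12 months replicate 3, or 18 months replicate 1 or 3. Near Thrb, which is on none of the lists, the runs chr14:17615001-17630000 and chr14:17633001-17646000 rose by 0.65 ± 0.14 (adjusted p = 0.0267) and 0.50 ± 0.11 (adjusted p = 0.0239). Both calls were lost without any 1 library of 3 months or without 18 months replicate 1, and the second also without 18 months replicate 3. The first overlapped Gm32269 of RefSeq. Of 21 cytochrome P450 genes on the list 1 was nearest to 2 runs, and 1 of these was lower, where 3.67% of all runs and gene bodies were: chr7:140733001-140739000, 24.7 kb from Cyp2e1, held 12.9, 13.4 and 16.5 at 3 months, 7.40, 8.15 and 10.8 at 12 months and 10.2, 7.54 and 7.99 at 18 months (-0.69 ± 0.17, adjusted p = 0.0419). The ages 3 and 18 months did not overlap, and the call was lost without TMM factors and without any 1 library of 3 months, 12 months replicate 2, or 18 months replicate 2 or 3.

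No run near another list was called for 18 against 3 months in the edgeR fit. Plasma protein and apolipoprotein genes were nearest to 6 runs (2 genes, median -0.11), lipid and glucose genes to 2 runs (median -0.20), and Kupffer and immune markers to 1 run (-0.14). Immediate early and stress genes, which respond fast to stimuli, were nearest to 6 runs (5 genes, median -1.11). At an unadjusted p under 0.05 stood 4 of the 6 runs by immediate early and stress genes, 1 of the 6 by plasma protein genes, and none of the others in that fit, where 435 of all 1493 runs did, and DESeq2 called 1 run of each of these 2 lists. Over the 1493 runs the median was -0.15. No run had a gene of the circadian clock, endothelial, stellate and fibroblast or cholangiocyte lists as its nearest protein-coding gene.

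The windows with most reads were not spread. The 10 runs with the highest mean level were all piled up windows or 4.5S RNA, with adjusted p values of 0.27 or more for 18 against 3 months. Of these runs, chr15:85177001-85178000 was called, as lower at 18 months, when 18 months replicate 1 was left out. The highest, chr3:5860001-5861000, had a mean of 3696 normalised RPM over the 9 libraries and a log2 change of 0.14, and chr10:11491001-11493000 one of 3270.1 normalised RPM and 0.05. Matches to stable RNAs varied between libraries of an age. The 38 windows of 4.5S RNA, a small rodent RNA, summed to 716, 760 and 628 normalised RPM at 3 months, 1574, 806 and 829 at 12 months and 896, 492 and 542 at 18 months, so that 12 months replicate 1 was highest. The 37 tRNA windows summed to 666, 576 and 415, then 468, 397 and 399, then 848, 610 and 449, with overlap between all ages. Of the 84 stable RNA windows 18 were called for 18 against 3 months (21.4%; 10 higher, 8 lower), against 5.86% of all windows (2.35% higher, 3.51% lower).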

How the data were processed

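The deposited values are raw counts: for every base and strand, how many reads of a library had their recorded end there. Per the labels and the study's methods, the authors trimmed reads with cutadapt 1.13, aligned them to GRCm38 with STAR 2.7.3a, kept unique alignments and counted ends with bedtools 2.29.2, without pooling replicates. How copies of a molecule were treated was not given in the sources used here, and reads that map to more than 1 place are absent, which lowers signal in repeats. PCR copies are not independent molecules, so the reads bound counting error only.

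Counts were summed in 1 kb windows of both strands. Windows of the whole table (406304) and runs with gene bodies (15784) were compared between ages in edgeR 4.0.16 (R 4.3.3) by the quasi-likelihood test with TMM factors and Benjamini-Hochberg adjustment, and strand balance by the interaction of strand with age. RPM are reads scaled by a library's total on chr1 to chr19, and normalised RPM are RPM divided by its TMM factor. A called item has an adjusted p under 0.05. DESeq2 1.42.0 was an alternative. Stable RNA matches came from blastn 2.17.0 (at least 85% identity over 50 bases). Tested on simulated data, each fit recovered part of the changes placed in it, that of strand balance least, so many moderate changes would not be called.

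Windows named by rule were the 10 runs with the highest mean, the 5 largest rises and 5 largest falls for 18 against 3 months and 3 each way for the other pairs (called, mean of at least 20 reads, no overlap of the libraries), the 5 most even strands among the 100 fullest windows, called strand changes, the 10 commonest nearest genes, and the called run with the largest change per listed gene. Others are said to have been chosen after their values were seen. The windows and the gene lists were chosen with earlier results of these data known. Part of the motif search and part of the list of genes with windows behind them are not reported here.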

Additional observations from a re-analysis of the deposited data

How the results depend on the processing

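Counts fall with depth and with stricter rules, which also leave fewer windows that can be called. For 18 against 3 months, 472 windows were called at a minimum mean of 20 reads, 340 with libraries thinned to the shallowest, 428 of the 2751 over 20 kb from genes, and 454 to 736 with a library left out. For 12 against 3 months the same settings gave 427, 330, 412 and 291 to 814. For 18 against 12 months DESeq2 gave 44, with no adjusted p set for 83.7% of the windows, and leaving out a library gave 15 to 204. The 2-stranded spread windows gave 31 without TMM factors, 19 thinned, 33 with at least 35% on the lesser strand (all chosen after seeing the data) and 22 to 52 with a library left out. DESeq2 called 250, 179 and 49 runs for the 3 comparisons in order, and leaving out a library gave 44 to 150, 26 to 92 and 0 to 22. Changes of strand balance numbered 0 to 3. The slope of the far share was 0.0326 percentage points per 12 months with at most 5 reads per position, and -0.151 to 0.0611 with a library left out. With at most 5 reads per position chr13:50955001-50956000 and chr17:44121001-44122000 turned to 0.21 and 0.12. Without 18 months replicate 1, the uncalled runs chr3:5860001-5861000, chr6:47739001-47740000 and chr10:11491001-11493000 turned to -0.022, -0.18 and -0.18, and the last to -0.056 without 3 months replicate 3, and with a library left out their highest values were 0.24, 0.32 and 0.17. The causes were not tested.

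Libraries of different ages share replicate numbers, but same-numbered ones did not deviate together (correlations -0.10 to 0.18 over the windows, and 4 of 9 libraries were closest to their own number), so the numbers do not pair them. With the replicate number as a block, 726 windows were called for 18 against 3 months (375 higher, 351 lower), 671 for 12 against 3 months and 146 for 18 against 12 months, with 113, 72 and 3 runs and 52 of the 2-stranded windows, and the slope of the far share had an exact permutation p of 0.801. With it the runs chr7:140733001-140739000, chr1:137491001-137492000, chr6:4857001-4871000, chr11:101682001-101698000 and chr14:17615001-17630000 were not called for 18 against 3 months, and chr8:114010001-114095000 was called for 12 against 3 months.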
